A study of Pyrus pyrifolia with 6 samples.

Results

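The genes described here encode the enzymes that remove superoxide and peroxides in pear fruit, the thiol proteins that supply them with electrons, and the enzymes and carriers that handle ascorbate. They were taken from the protein-coding genes of the expression table by product name. A gene was kept if its name contained superoxide dismutase, catalase, ascorbate, peroxiredoxin, thioredoxin, glutaredoxin, glutathione reductase or glutathione peroxidase, and ascorbate oxidases were left out. This gave 211 genes of 34996 protein-coding genes and 38969 genes in all. Of the 211, 130 had enough reads to be tested, and the other 81 did not pass the filter on low counts.

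RNA-Seq was performed on watercore pulp and on healthy pulp of Pyrus pyrifolia, with 3 libraries in each group. Watercore is a disorder in which the flesh becomes water-soaked and translucent. The labels name the cultivar as Qiurong, give trees of 5 years and a harvest at 120 days, and set the groups apart by the state of the pulp alone, with no other treatment. The labels say that affected and normal pulp were sorted after harvest, so how long a fruit had been affected is not known, and the sources used here do not give the number of fruits in each library. One label field calls the organ fruit skin, while the treatment field and the study's methods call it pulp. The methods also name the cultivar differently and give older trees, a later sampling day and another RNA extraction.

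The total count was between 14431337 and 15290688 in the watercore libraries and between 14382020 and 14871188 in the healthy libraries. Reads were counted for 27133 to 27293 genes in a watercore library and for 24757 to 25105 genes in a healthy library. Genes of the cuticle and skin were close to 0 in both groups: 2 of 24 could be tested, 9 had no read at all, and their summed level was 4.26 to 4.88 CPM (a gene's counts scaled to the size of its library) in watercore pulp against 1.56 to 2.54 CPM in healthy pulp. Sorbitol dehydrogenases, enzymes of Rosaceae fruit flesh, summed to 2796 to 2996 CPM in watercore pulp and 4175 to 4268 CPM in healthy pulp, while by gene 4 of 12 tested of 14 were called higher and 1 lower, with a median log2 fold change of 0.71. Genes named for seed proteins summed to 1743 to 1904 CPM in watercore pulp and 255 to 297 CPM in healthy pulp, where 5 of the 12 tested of 28 were called higher and 10 had no read in any library. Chlorophyll a-b binding proteins, markers of green tissue, summed to 75.4 to 78.2 CPM in watercore pulp and 83.6 to 93.7 CPM in healthy pulp. The part of these other tissues in the results below was not tested, and in bulk pulp fewer cells of a type and less RNA per cell cannot be told apart.

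Superoxide dismutase turns superoxide into hydrogen peroxide. In plants the peroxide is then reduced by catalase, by ascorbate peroxidase, by peroxiredoxins and by glutathione peroxidases. Ascorbate that has been oxidised is restored by monodehydroascorbate reductase and by dehydroascorbate reductase, and the glutathione used for the second step is restored by glutathione reductase. Peroxiredoxins and most plant glutathione peroxidases are themselves reduced by thioredoxins or glutaredoxins, small proteins with reactive cysteines, which draw on NADPH or, in chloroplasts, on ferredoxin.

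Watercore pulp did not show one direction across these genes. A gene was called when its log2 fold change (watercore over healthy) was at least 1 in size and its adjusted p was under 0.05 in edgeR's quasi-likelihood test, with Benjamini-Hochberg adjustment over 21200 genes. Under this rule 20 of the 130 tested members were higher in watercore pulp (15.4%), against 17.6% of all tested genes, and 18 were lower (13.8%), against 7.54% of all tested genes. With no minimum fold change, 32 members passed as higher (24.6%, against 32.3% of all genes) and 62 as lower (47.7%, against 30.4%). The median log2 fold change was -0.34 over the tested members and 0.00 over all tested genes. Small decreases were thus more common than large ones, and the larger changes ran both ways.

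**Figure D1:**
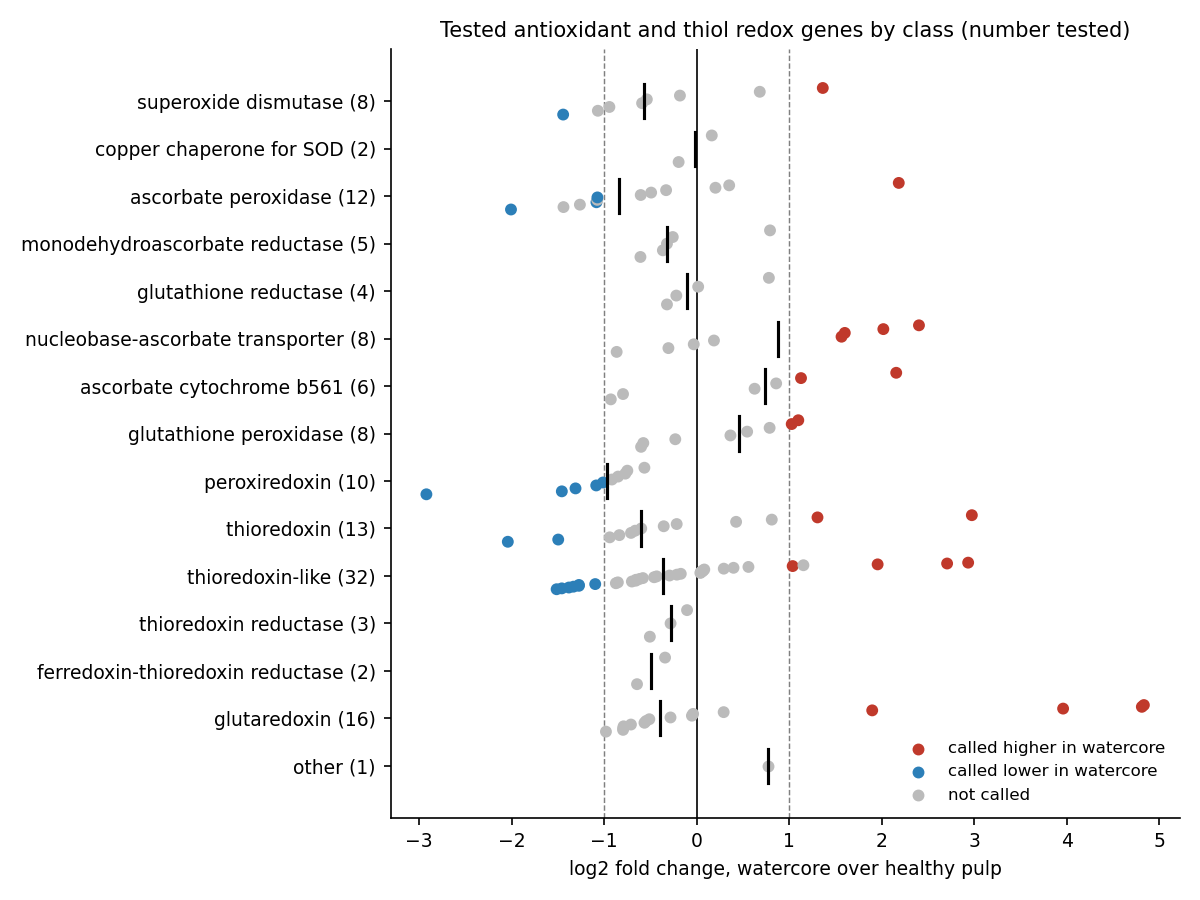
Log2 fold change of each of the 130 tested members (watercore over healthy pulp), one row per class, with the class median as a black bar and dashed lines at -1 and 1. The 10 peroxiredoxins all lie left of 0. Of the tested glutaredoxins 11 of 16 lie left of 0, as do 3 of 8 nucleobase-ascorbate transporters and 2 of 6 ferrireductases. The called genes of these 3 classes lie right of 1, as the call rule requires of a gene called higher.

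Members are shorter than most genes, with a median length of 1145 bases for the tested members and 1797 bases for all tested genes. Fold changes in these libraries varied with gene length. When a smooth trend with length was removed within each library, the median log2 fold change of all tested genes became -0.33 and that of the members became -0.60. The counts were then 16 members higher (12.3%, against 13.2% of all genes) and 31 lower (23.8%, against 14.0%). The directions of classes given here hold relative to that shift, and class counts that change with it are given with the class. Uncorrected class counts are to be read beside the 17.6% higher and 7.54% lower of all tested genes. The share of all tested genes without overlap between the groups was not counted, so a lack of overlap is given as description only. Of the tested members, 8 were under the count filter's minimum of 0.688 CPM in every library of one group. Such a gene passed the filter only through the group where it is high and had to differ, so its call carries no weight. These were LOC103932488, LOC103940512, LOC103942810, LOC103943627, LOC103947926, LOC103959054, LOC103963974 and LOC108868294. The other 30 calls did not meet this condition. Among them, LOC103936306, LOC103932189, LOC103953499 and LOC103931324 reached the minimum in a single healthy library. They too needed watercore pulp to pass the filter, so their calls carry little weight.

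Superoxide dismutase genes did not share a direction, and their summed level was about the same, at 242 ± 50.7 CPM in watercore pulp and 240 ± 46.8 CPM in healthy pulp (SD, n = 3 each). Of 12 genes 8 were tested, 1 was called higher and 1 lower (2 lower with the length correction), 6 had a log2 fold change under 0 and 2 above, and the median was -0.56. The gene called higher was the copper-zinc enzyme LOC103956225, with 33.8, 32.0 and 34.3 CPM in watercore pulp and 14.9, 12.5 and 11.6 CPM in healthy pulp. All watercore libraries lay above all healthy ones, and the log2 fold change was 1.36 (SE 0.11, adjusted p = 1.1e-05). Its locus, on scaffold NW_008988174.1 from 434772 to 437499, lies wholly within the spans of a tubulin alpha-3 gene on the other strand and of a 5'-adenylylsulfate reductase-like gene on the same strand. Those neighbours had log2 fold changes of -0.13 and -0.52, and the reads of overlapping genes may not be fully separable in the counts.

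The copper-zinc gene LOC103943797, named as isoform 1, had the highest FPKM of the class averaged over the 6 libraries but could not be compared. It had 113, 25.0 and 122 CPM in watercore pulp and 9.72, 118 and 34.2 CPM in healthy pulp, so the libraries of each group spread over most of the same range. Its log2 fold change was 0.68 (SE 0.77, adjusted p = 0.46), and without healthy replicate 2 it became 1.99 and was called. Chloroplast copper-zinc enzymes were steadier. LOC103947719 had 23.7, 26.3 and 21.5 CPM in watercore pulp, against 33.6, 35.2 and 38.7 CPM in healthy pulp (log2 fold change -0.59, adjusted p = 0.00076), a difference under the fold threshold.

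The mitochondrial manganese enzyme LOC103953755 was called lower, with 8.24, 9.25 and 7.35 CPM in watercore pulp and 9.65, 13.0 and 45.1 CPM in healthy pulp. The call (log2 fold change -1.44, SE 0.51, adjusted p = 0.035) leaned on the healthy library with 45.1 CPM. Without that healthy replicate 3 the value was -0.45, and the call was also lost without watercore replicate 1 (-1.44), replicate 2 (-1.52) or replicate 3 (-1.37). Both copper chaperones that load superoxide dismutase were close to level, and the more abundant, LOC103952856, had a log2 fold change of 0.16 (SE 0.14, adjusted p = 0.34) that turned to -0.06 with the length correction.

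Ascorbate peroxidases, which reduce hydrogen peroxide with ascorbate, split by isoform. Of 14 genes 12 were tested, with 1 called higher and 3 called lower and a median log2 fold change of -0.84. The cytosolic APX2 gene LOC103934327 had 87.6, 75.5 and 86.2 CPM in watercore pulp and 22.7, 19.8 and 12.3 CPM in healthy pulp. This was a 4.54-fold higher level, with no overlap between the groups (log2 fold change 2.18, SE 0.18, adjusted p = 1.3e-05). The most abundant isoform went the other way by a small amount. LOC103948906, also cytosolic, had 304, 274 and 277 CPM in watercore pulp and 408, 384 and 410 CPM in healthy pulp (log2 fold change -0.49, SE 0.06, adjusted p = 0.00012). On the per-length scale, LOC103934327 averaged 70.9 FPKM in watercore pulp and 15.5 FPKM in healthy pulp, against 174 and 242 FPKM for LOC103948906, so APX2 remained the less abundant of the pair in both groups.

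The peroxisomal isoform LOC103953464, named APX3, had the smallest adjusted p of the class. It had 50.2, 47.9 and 46.2 CPM in watercore pulp and 99.6, 110 and 96.0 CPM in healthy pulp (log2 fold change -1.08, SE 0.07, adjusted p = 3.3e-06), and the groups did not overlap. A further cytosolic gene, LOC103943785, was scarce, with 1.98, 1.11 and 1.72 CPM in watercore pulp and 4.49, 2.01 and 3.67 CPM in healthy pulp. Its call (log2 fold change -1.07, SE 0.36, adjusted p = 0.028) was lost without healthy replicate 1 (-0.81), healthy replicate 3 (-1.01), watercore replicate 2 (-0.86) or watercore replicate 3 (-1.12). The chloroplast-named LOC103929005 (APX6) had 3.56, 15.2 and 2.75 CPM in watercore pulp and 25.8, 37.4 and 23.1 CPM in healthy pulp. The groups did not overlap (log2 fold change -2.01, SE 0.53, adjusted p = 0.0091), but the gene has a same-named partner that is treated with the paired loci further on.

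The tested enzymes that restore ascorbate and glutathione all stayed under the fold threshold and went both ways. None of the 5 tested monodehydroascorbate reductases of 7 and none of the 4 glutathione reductases was called. The most abundant monodehydroascorbate reductase, LOC103956392, had 402, 406 and 404 CPM in watercore pulp and 473, 485 and 491 CPM in healthy pulp, a difference with no overlap but a log2 fold change of only -0.26 (SE 0.05, adjusted p = 0.0013). The peroxisomal LOC103926938 moved the other way, with 97.4, 84.2 and 96.4 CPM in watercore pulp and 49.1, 52.3 and 59.2 CPM in healthy pulp (log2 fold change 0.79, adjusted p = 6.7e-05). Cytosolic glutathione reductase LOC103963516 stayed level, with 264, 281 and 253 CPM in watercore pulp and 249, 267 and 273 CPM in healthy pulp (log2 fold change 0.02, SE 0.06, adjusted p = 0.84). A chloroplast-type glutathione reductase, LOC103946001, was higher but under the fold threshold, with 106, 116 and 112 CPM in watercore pulp and 65.0, 69.5 and 59.8 CPM in healthy pulp (log2 fold change 0.78, adjusted p = 2.0e-05). Dehydroascorbate reductases carry glutathione S-transferase names in the table and so were not members. The 6 genes named DHAR, looked up after the data had been seen, were all tested and none was called, with log2 fold changes between -0.51 and 0.66.

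Among the carriers and membrane proteins named for ascorbate, more genes were called higher than lower. The same held over all tested genes, with 17.6% called higher and 7.54% lower. Nucleobase-ascorbate transporters, a family known to carry nucleobases in plants and ascorbate in mammals, had 4 higher and none lower of 8 tested of 14, with a median log2 fold change of 0.88; with the length correction 4 were higher and 1 lower. One of the 4, LOC103942810, entered through watercore pulp only. LOC103953960, named isoform 3-like, had 77.9, 84.7 and 83.3 CPM in watercore pulp and 25.8, 26.9 and 28.5 CPM in healthy pulp. Replicates lay close together within each group, and the level was 3.03-fold higher (log2 fold change 1.60, SE 0.07, adjusted p = 4.6e-07). LOC103949763, a short gene model of the same name, had 14.1, 16.3 and 14.9 CPM in watercore pulp and 2.65, 4.02 and 4.51 CPM in healthy pulp (log2 fold change 2.02, SE 0.19, adjusted p = 3.0e-05). The scarcer LOC103953499 also rose, with a log2 fold change of 1.56 (SE 0.33, adjusted p = 0.0028). It reached the filter's minimum in a single healthy library, so its call carries little weight. Most of the class total, however, came from LOC103949633, which held between 71.9% and 76.4% of its CPM in watercore pulp and between 81.7% and 86.0% in healthy pulp. That gene had 380, 320 and 341 CPM in watercore pulp and 249, 289 and 377 CPM in healthy pulp, and the groups overlapped (log2 fold change 0.19, SE 0.14, adjusted p = 0.26).

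Transmembrane ascorbate ferrireductases of the cytochrome b561 family pass electrons from ascorbate across a membrane. Of 9 genes 6 were tested and 2 were called, both higher, whereas with the length correction 1 was higher and 1 lower. LOC103932189 had 2.70, 3.69 and 2.82 CPM in watercore pulp and 0.612, 1.07 and 0.353 CPM in healthy pulp (log2 fold change 2.16, SE 0.39, adjusted p = 0.0012). It reached the filter's minimum in a single healthy library, so its call carries little weight. LOC103960561 had 11.5, 13.3 and 7.01 CPM in watercore pulp and 4.96, 3.55 and 6.06 CPM in healthy pulp (log2 fold change 1.13, SE 0.27, adjusted p = 0.0060). The second call was lost without healthy replicate 2 (0.95), without watercore replicate 2 (0.94) and with the length correction (0.97). The class was divided by isoform, because the most abundant gene, LOC103947793, had 18.3, 19.3 and 19.7 CPM in watercore pulp against 33.2, 34.9 and 31.4 CPM in healthy pulp (log2 fold change -0.80, SE 0.08, adjusted p = 5.2e-05). The chloroplast-named ascorbate transporter LOC103957416 had 18.2, 18.9 and 18.8 CPM in watercore pulp and 9.38, 11.5 and 12.0 CPM in healthy pulp, a log2 fold change of 0.77 (SE 0.12, adjusted p = 0.00052) that stayed under the threshold.

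Glutathione peroxidases, which in plants reduce lipid and hydrogen peroxides, held the single most abundant member of the watercore libraries. LOC103932090, a phospholipid hydroperoxide type, had 1045, 911 and 998 CPM in watercore pulp and 457, 491 and 433 CPM in healthy pulp. Every watercore library was far above every healthy one, a 2.14-fold difference (log2 fold change 1.10, SE 0.07, adjusted p = 3.2e-06). With the length correction its value was 0.97 and the call was lost. A gene of the same name, LOC103932089, lies 684 bases away on the same strand and went the other way, with 38.5, 33.5 and 35.9 CPM in watercore pulp and 54.9, 48.8 and 57.3 CPM in healthy pulp (log2 fold change -0.58, adjusted p = 0.00037).

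Of 11 glutathione peroxidase genes 8 were tested, 2 were called higher and none lower, with a median log2 fold change of 0.45. The second call was the plastid-named LOC103949717, with 10.3, 9.88 and 9.35 CPM in watercore pulp and 4.49, 5.29 and 4.72 CPM in healthy pulp (log2 fold change 1.03, SE 0.15, adjusted p = 0.00033). It stood just over the threshold and was not called without healthy replicate 1 (0.98), without watercore replicate 1 (0.99) or with the length correction (0.86). Under that correction the class had no call and a median of -0.04, which is above the -0.33 of all genes. Glutathione peroxidase 5, LOC103939345, had 124, 126 and 120 CPM in watercore pulp and 83.6, 88.4 and 81.6 CPM in healthy pulp, a smaller rise (log2 fold change 0.55, adjusted p = 4.3e-05).

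Peroxiredoxins, thiol peroxidases that use a reactive cysteine in place of a metal or haem, were the one larger class with every tested gene on the same side. All 10 tested of 12 had a log2 fold change under 0 and an adjusted p under 0.05, 5 were called lower and none higher, and the median was -0.96. Under the length correction 7 were called lower, and the value nearest to 0 was -0.73. With DESeq2's size factors in edgeR (RLE scaling) the call count was 4 and the value nearest to 0 was -0.55. DESeq2, which also gave values for the 2 genes removed by edgeR's filter, called 4 lower and placed those 2 genes, which had reads in watercore pulp only, above 0. The cytosolic peroxiredoxin-2B gene LOC103929408 had 564, 489 and 519 CPM in watercore pulp and 989, 900 and 945 CPM in healthy pulp. The groups were widely apart, but at 1.80-fold the difference fell short of the fold threshold (log2 fold change -0.85, SE 0.07, adjusted p = 9.8e-06).

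Both mitochondrial peroxiredoxin-2F genes were called lower. LOC103930814 had 11.3, 8.21 and 9.76 CPM in watercore pulp and 30.9, 27.1 and 22.6 CPM in healthy pulp (log2 fold change -1.46, SE 0.16, adjusted p = 5.5e-05). LOC103954122 had 16.9, 17.0 and 19.4 CPM in watercore pulp and 50.2, 41.7 and 40.2 CPM in healthy pulp (log2 fold change -1.31, SE 0.11, adjusted p = 1.4e-05). The pair gave close values. Among the plastid forms, peroxiredoxin Q LOC103940512 had counts of 2, 4 and 8 reads in watercore pulp and 44, 30 and 34 reads in healthy pulp. Its level was 7.57-fold lower, a log2 fold change of -2.92, but it rests on few reads and the gene passed the filter through healthy pulp only, so its call, 1 of the 5 among peroxiredoxins, carries no weight.

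Plastid peroxiredoxin-2E-2, LOC103955165, had 52.8, 48.6 and 48.8 CPM in watercore pulp and 112, 110 and 96.4 CPM in healthy pulp (log2 fold change -1.09, SE 0.07, adjusted p = 4.6e-06). A further peroxiredoxin Q gene, LOC103935328, was called with a log2 fold change of -1.01 (SE 0.36, adjusted p = 0.033), just past the threshold. This call rests on few reads, with 28, 10 and 19 in watercore pulp and 34, 40 and 40 in healthy pulp. All 3 plastid 2-Cys peroxiredoxins of the BAS1 type were lower without being called. Their log2 fold changes were -0.77 for LOC103941365, -0.75 for LOC103940753 and -0.57 for LOC103961707. The most abundant of them, LOC103961707, had 80.7, 77.2 and 83.0 CPM in watercore pulp and 122, 122 and 112 CPM in healthy pulp. The 1-Cys form LOC103961241, a type known from seeds, was not tested, with 2, 3 and 0 reads in watercore pulp and none in healthy pulp.

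**Figure D2:**
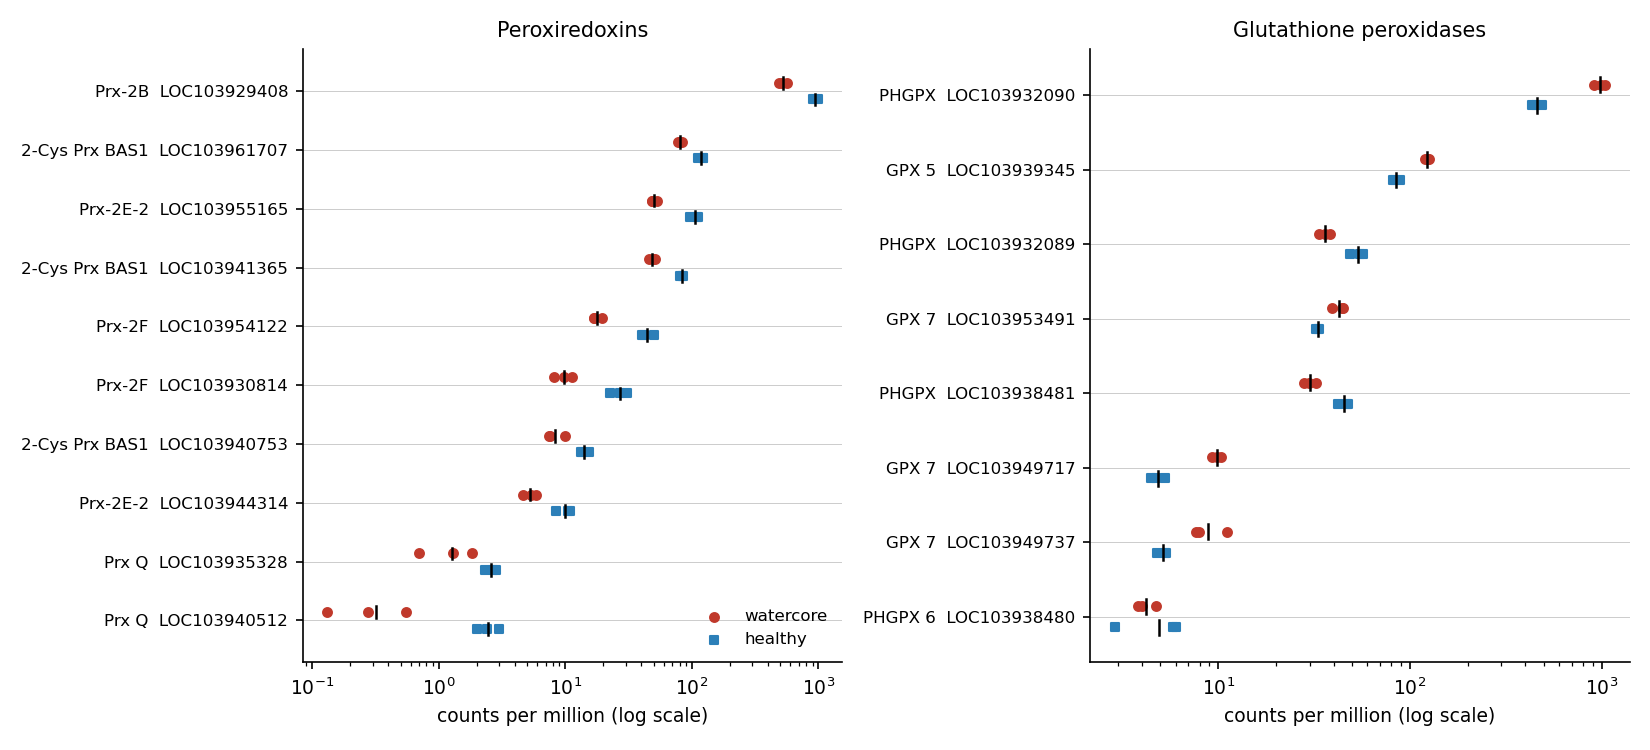
Level in CPM (log scale) of each tested peroxiredoxin and glutathione peroxidase in the 3 watercore libraries (red circles) and the 3 healthy libraries (blue squares), with group means as black ticks. Every peroxiredoxin has its watercore points left of its healthy points, while the top glutathione peroxidase row has them to the right, at 911 to 1045 CPM against 433 to 491 CPM.

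The order of the most abundant members therefore differed between the groups. On the per-length scale the glutathione peroxidase LOC103932090 averaged 1291 ± 88.0 FPKM in watercore pulp and 598 ± 38.7 FPKM in healthy pulp (SD, n = 3 each). The peroxiredoxin LOC103929408 averaged 658 ± 46.7 FPKM in watercore pulp and 1176 ± 52.8 FPKM in healthy pulp. The first gene ranked 1 among all members in watercore pulp and the second ranked 1 in healthy pulp, and the separation of the pair exceeded the replicate spread in both groups. Monodehydroascorbate reductase LOC103956392 ranked 3 in both groups, with 248 ± 1.26 FPKM in watercore pulp and 294 ± 5.53 FPKM in healthy pulp. Thioredoxin H1 LOC103928381 ranked 4 in watercore pulp and 13 in healthy pulp.

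Summed over each class, peroxiredoxins came to 792, 700 and 746 CPM in watercore pulp and 1418, 1314 and 1327 CPM in healthy pulp. Glutathione peroxidases came to 1311, 1159 and 1250 CPM in watercore pulp and 692, 720 and 665 CPM in healthy pulp. Ascorbate peroxidases summed to 584, 542 and 540 CPM in watercore pulp and 704, 677 and 726 CPM in healthy pulp. Over the 37 genes of the 3 classes the total was 2541 ± 143 CPM in watercore pulp and 2748 ± 57.6 CPM in healthy pulp (SD, n = 3 each). The 2 classes that changed most moved in opposite directions, so the total moved far less than either. These sums follow a few genes, since LOC103932090 held 78.6% to 79.8% of the glutathione peroxidase CPM in watercore pulp and 65.2% to 68.2% in healthy pulp, and LOC103929408 held 69.6% to 71.2% of the peroxiredoxin CPM in watercore pulp and 68.5% to 71.2% in healthy pulp.

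**Figure D3:**
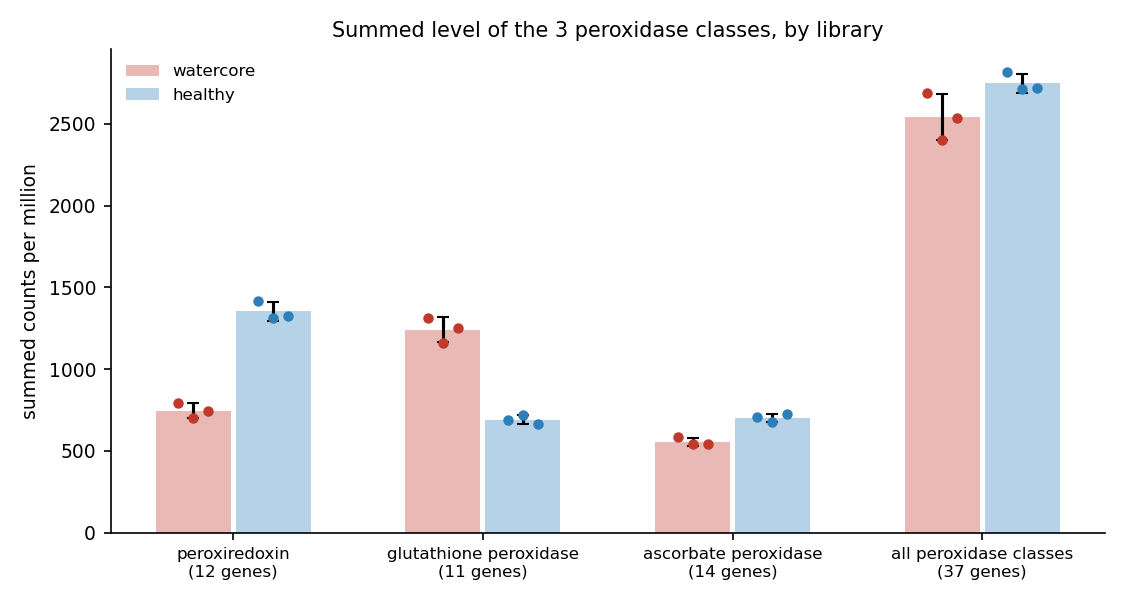
Summed level in CPM of the peroxiredoxin, glutathione peroxidase and ascorbate peroxidase genes and of all 37, with watercore left of healthy. Bars are means of 3 libraries, error bars are SD and points are libraries; the combined total averages 2541 CPM in watercore pulp and 2748 CPM in healthy pulp.

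Thioredoxins are general electron donors to peroxiredoxins and most plant glutathione peroxidases. They gave 2 higher and 2 lower calls among 13 tested of 28, or 2 and 4 with the length correction. Their median log2 fold change was -0.60. One call in each direction, LOC108868294 and LOC103932488, came from a gene that entered through one group only. The abundant cytosolic-type thioredoxin H1 gene LOC103928381 had 155, 141 and 161 CPM in watercore pulp and 69.0, 62.5 and 53.4 CPM in healthy pulp. No library of one group reached the range of the other, and the level was 2.47-fold higher (log2 fold change 1.31, SE 0.10, adjusted p = 6.1e-06). Its share of the class CPM was 38.7% to 39.1% in watercore pulp and 13.2% to 15.4% in healthy pulp. Thioredoxin H2, LOC103928496, took the opposite direction with a smaller size, at 63.2, 57.8 and 62.7 CPM in watercore pulp and 113, 96.0 and 91.7 CPM in healthy pulp (log2 fold change -0.71, SE 0.09, adjusted p = 0.00011).

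Both lower calls were plastid types, of which 1 carries weight. Thioredoxin M3, LOC103937996, had 16.1, 13.1 and 12.2 CPM in watercore pulp and 39.6, 36.8 and 40.8 CPM in healthy pulp (log2 fold change -1.50, SE 0.12, adjusted p = 8.4e-06). The F-type gene LOC103932488, of the kind that activates enzymes of carbon fixation in the light, had only 4, 5 and 9 reads in watercore pulp and 22, 31 and 22 reads in healthy pulp (log2 fold change -2.04), and it passed the filter through healthy pulp only. Of the 9 genes named for the plastid types F, M, X, Y or Z, these were the 2 tested, and 5 had no read in any library. Mitochondrial O-type thioredoxins did not share a direction: of 6 tested, 4 lay under 0 and 2 above, with the abundant LOC103932424 at 28.4, 25.5 and 26.1 CPM in watercore pulp and 55.7, 47.0 and 50.7 CPM in healthy pulp (log2 fold change -0.94, adjusted p = 2.3e-05).

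Thioredoxin-like proteins formed the largest tested class, with 4 higher and 7 lower calls of 32 tested of 42 (3 and 10 with the length correction) and a median log2 fold change of -0.36. The shares were 12.5% higher, against 17.6% of all tested genes, and 21.9% lower, against 7.54%. Of the higher calls, 2 were TPR genes, described further on, that entered through watercore pulp only and carry no weight. The proteins in it differ widely in function. Both AAED1-type genes were called lower, LOC103934107 with 4.02, 3.55 and 4.88 CPM in watercore pulp and 12.2, 11.9 and 11.4 CPM in healthy pulp (log2 fold change -1.51, SE 0.16, adjusted p = 5.4e-05) and LOC103952677 with a log2 fold change of -1.27. Both genes named slr0233 were called lower too, with LOC103931684 at 27.4, 27.0 and 27.5 CPM in watercore pulp and 56.2, 58.9 and 60.0 CPM in healthy pulp (log2 fold change -1.10, SE 0.06, adjusted p = 2.1e-06). CXXS1, LOC103956444, a form with 1 active-site cysteine replaced, had 17.7, 14.3 and 15.3 CPM in watercore pulp and 38.2, 31.3 and 53.5 CPM in healthy pulp (log2 fold change -1.38, SE 0.19, adjusted p = 0.00022). Thioredoxin-like 3-3, LOC103965677, was lower as well (log2 fold change -1.46, SE 0.21, adjusted p = 0.00032).

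The plastid proteins named thioredoxin-like 1 went both ways. LOC103931324, named 1-2, had 60, 61 and 59 reads in watercore pulp and 2, 9 and 16 reads in healthy pulp, with a log2 fold change of 2.71 (SE 0.49, adjusted p = 0.0012). It reached the filter's minimum in a single healthy library, so its call carries little weight. LOC103958700, of the same name, had 24.4, 23.0 and 21.1 CPM in watercore pulp and 8.84, 10.7 and 13.8 CPM in healthy pulp (log2 fold change 1.04, SE 0.16, adjusted p = 0.00045), a call lost without healthy replicate 1 (0.90), without watercore replicate 1 (0.99) and with the length correction (0.82). The 1-1 genes were themselves divided. LOC103956197, the most abundant of the class, had 222, 207 and 202 CPM in watercore pulp and 331, 317 and 347 CPM in healthy pulp (log2 fold change -0.66, SE 0.06, adjusted p = 2.2e-05). LOC103944421 had 98.3, 92.4 and 84.3 CPM in watercore pulp and 55.9, 62.5 and 68.4 CPM in healthy pulp (log2 fold change 0.56, SE 0.09, adjusted p = 0.00051). The pair moved in opposite directions. Proteins that join TPR repeats to a thioredoxin domain, 7 tested of 12, all had a log2 fold change above 0, but with the length correction 4 did and 3 lay under 0. In the uncorrected fit 2 were called, both scarce and both entered through watercore pulp only, such as LOC103959054 with 1.38, 2.02 and 1.17 CPM in watercore pulp and 0.476, 0.603 and 0.0705 CPM in healthy pulp.

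The reductases that recharge thioredoxins gave no call. NADPH-dependent LOC103950195, named NTRB-like, had 110, 109 and 102 CPM in watercore pulp and 124, 120 and 102 CPM in healthy pulp, and the groups overlapped (log2 fold change -0.10, SE 0.08, adjusted p = 0.29). LOC103931663, named isoform 3, was lower by less than the threshold, with 25.6, 28.5 and 29.3 CPM in watercore pulp and 41.3, 42.6 and 34.6 CPM in healthy pulp (log2 fold change -0.51, adjusted p = 0.0020). Ferredoxin-thioredoxin reductase, the plastid enzyme that takes electrons from ferredoxin, was slightly lower in both of its chains. The variable chain LOC103943249 had 38.1, 33.2 and 38.8 CPM in watercore pulp and 43.0, 46.3 and 50.2 CPM in healthy pulp (log2 fold change -0.34, SE 0.09, adjusted p = 0.0082), and the catalytic chain LOC103928451 had a value of -0.64 on the same scale (adjusted p = 0.00098).

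Glutaredoxins, which use glutathione in place of thioredoxin reductase, divided by abundance. Of 48 genes only 16 were tested, with 4 called higher, none called lower and a median log2 fold change of -0.40. The called genes were all scarce in healthy pulp, and LOC103943627 and LOC103963974 passed the filter through watercore pulp only. LOC103936306 reached the filter's minimum in a single healthy library and also needed watercore pulp to pass, so its call carries little weight. Monothiol glutaredoxin-S2, LOC103943627, had 69, 45 and 38 reads in watercore pulp and 2, 1 and 2 reads in healthy pulp, equal to 4.55, 3.13 and 2.61 CPM in watercore pulp against 0.136, 0.0670 and 0.141 CPM in healthy pulp. The fitted log2 fold change was 4.81, which rests on 5 healthy reads and, given how the gene entered, is only a description. Glutaredoxin-C9, LOC103936306, had 8.43, 11.2 and 9.48 CPM in watercore pulp and 1.22, 0.201 and 0.423 CPM in healthy pulp (log2 fold change 3.96, SE 0.45, adjusted p = 7.6e-05). Its relative LOC103944152 had 3.62, 4.38 and 2.75 CPM in watercore pulp and 1.43, 0.804 and 0.635 CPM in healthy pulp (log2 fold change 1.90, SE 0.36, adjusted p = 0.0015). In Arabidopsis the C9 protein is known to bind TGA transcription factors and to respond to salicylic acid. LOC103963974, the remaining call, had 14, 12 and 13 reads in watercore pulp and 1, 0 and 0 reads in healthy pulp.

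By contrast, the glutaredoxins that made up most of the class were level or slightly lower. Glutaredoxin-C4, LOC103934797, had 172, 160 and 162 CPM in watercore pulp and 216, 201 and 184 CPM in healthy pulp, with no overlap but a log2 fold change of only -0.28 (SE 0.07, adjusted p = 0.0062). The S17-type gene LOC103944221, whose Arabidopsis relative is known in iron-sulphur metabolism, had 129, 126 and 119 CPM in watercore pulp and 131, 125 and 128 CPM in healthy pulp (log2 fold change -0.04, adjusted p = 0.56). Both plastid S16-type genes were lower by the same amount, with LOC103940202 at 21.1, 20.8 and 21.0 CPM in watercore pulp and 37.5, 38.2 and 33.6 CPM in healthy pulp (log2 fold change -0.79, adjusted p = 4.7e-05). With the length correction 3 glutaredoxins were called lower. LOC103943626, an S10-like gene 9537 bases from LOC103943627, was not higher, with 1.32, 0.835 and 0.962 CPM in watercore pulp and 2.72, 1.005 and 2.47 CPM in healthy pulp (log2 fold change -0.98, adjusted p = 0.067).

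**Figure D4:**
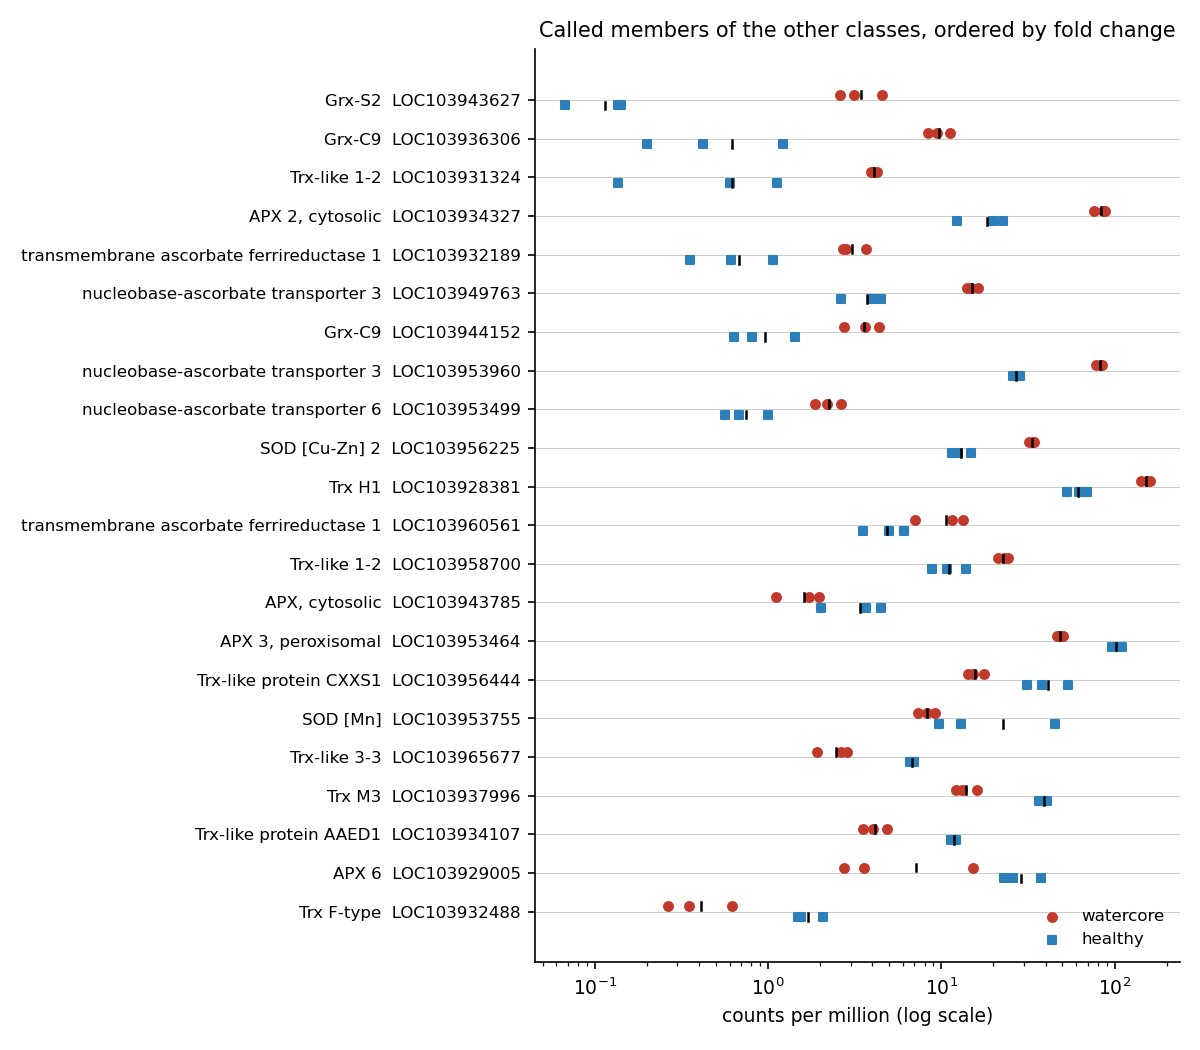
Level in CPM (log scale) of the called members picked by the naming rule outside the peroxiredoxins and glutathione peroxidases, ordered by fold change, for 3 watercore libraries (red circles) and 3 healthy libraries (blue squares), with group means as black ticks. Glutaredoxins S2 and C9 stand at the top with healthy points under 1.5 CPM, and the Mn superoxide dismutase row has 1 healthy library at 45.1 CPM away from its other points. The S2 gene LOC103943627 and the thioredoxin LOC103932488 passed the count filter through a single group only, so their calls carry no weight. LOC103936306, LOC103932189, LOC103953499 and LOC103931324 reached the filter's minimum in a single healthy library, so their calls carry little weight.

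Product names gave a compartment for some members. Chloroplast-named members had 3 higher and 9 lower calls of 44 tested of 74, and their summed level was 1221 to 1258 CPM in watercore pulp and 1547 to 1620 CPM in healthy pulp. Mitochondrion-named members had 1 higher and 3 lower calls of 11 tested of 14, with summed levels of 126 to 141 CPM in watercore pulp and 219 to 259 CPM in healthy pulp. Peroxisome-named members had 1 lower call of 6 tested of 8, the APX3 gene. Cytosol-named members had 1 higher and 1 lower call of 6 tested, both ascorbate peroxidases, with summed levels of 679 to 745 CPM in watercore pulp and 757 to 804 CPM in healthy pulp. Members with no compartment in the name had 15 higher and 4 lower calls of 63 tested of 109. Over all tested genes 17.6% were called higher and 7.54% lower. The counts by compartment include calls that carry no weight, because the gene entered through a single group. Among them are LOC108868294, the higher mitochondrial call, and LOC103940512, a lower chloroplast call. LOC103943627, LOC103963974 and LOC103942810 are others, all higher calls with no compartment in the name. The lower mitochondrial call of LOC103953755 was lost in several fits that left out a library. These names come from the annotation and are not localisation data, and the split by compartment was not itself tested.

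Genes that make the substrates of these enzymes were counted from lists outside the members, to be read beside the 17.6% higher and 7.54% lower of all tested genes. Ascorbate synthesis had 2 higher and no lower calls of 17 tested of 21, and both calls were scarce side-pathway genes that passed the filter through watercore pulp only: inositol oxygenase LOC103930318, with 0.988, 0.904 and 0.893 CPM in watercore pulp and 0.272, 0.0670 and 0.212 CPM in healthy pulp, and L-gulonolactone oxidase LOC103937841, with 1.12, 1.04 and 1.03 CPM in watercore pulp against 0.272, 0.201 and 0 CPM in healthy pulp. With no minimum fold change, 9 of the 17 tested ascorbate synthesis genes passed as lower, against 30.4% of all tested genes. The 2 that passed as higher were those just named. The list summed to 971 to 1008 CPM in watercore pulp and 1136 to 1270 CPM in healthy pulp. Its most abundant gene was LOC103940897, a GDP-L-galactose phosphorylase. It averaged 281 CPM in watercore pulp and 414 CPM in healthy pulp (log2 fold change -0.56, adjusted p = 0.00071). Glutathione synthesis had no call in either direction of 5 tested of 7. The NADPH-producing dehydrogenases had 1 lower call of 16 tested of 19, LOC103958099, which entered through healthy pulp only. Peptide methionine sulfoxide reductases, which repair oxidised methionine, had 1 lower call of 10 tested of 11, the A1-like LOC103959780 (log2 fold change -2.94, SE 0.32, adjusted p = 6.1e-05).

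Lists were also counted for enzymes on the oxidising side. Ascorbate oxidases, secreted copper enzymes that consume ascorbate in the cell wall, had 5 higher and no lower calls of 6 tested of 17, and their summed level was 128 to 141 CPM in watercore pulp and 78.2 to 84.2 CPM in healthy pulp. Of the 5 called, 4 were under the filter's minimum in every healthy library and entered through watercore pulp only, so the count carries little weight. The homolog LOC103927212 had 39.1, 41.1 and 33.0 CPM in watercore pulp and 7.88, 5.83 and 4.37 CPM in healthy pulp (log2 fold change 2.64, SE 0.19, adjusted p = 5.6e-06) and was the exception. LOC103959275, one of the 4, had 34.4, 22.4 and 28.8 CPM in watercore pulp and 0.272, 0.0670 and 0.141 CPM in healthy pulp. The remaining tested gene, LOC103937379, was the most abundant of the list and went the other way. It averaged 57.9 CPM in watercore pulp and 74.7 CPM in healthy pulp (log2 fold change -0.37, adjusted p = 0.00038). Many genes of the list, LOC103927212 included, are named only as homologs, and whether they act on ascorbate is not known from the name. Respiratory burst oxidases, membrane NADPH oxidases that make superoxide outside the cell, had 2 higher calls of 5 tested of 10, both D-like. LOC103944734 had 32.3, 34.9 and 36.8 CPM in watercore pulp and 1.43, 2.08 and 1.55 CPM in healthy pulp (log2 fold change 4.35, SE 0.15, adjusted p = 1.6e-07). LOC103950368 had 19.4, 30.1 and 18.7 CPM in watercore pulp and 0.272, 0.871 and 0.494 CPM in healthy pulp (log2 fold change 5.36, SE 0.34, adjusted p = 2.8e-06). It reached the filter's minimum in a single healthy library, so its call carries little weight. Across the full list of peroxide and superoxide sources, 3 of 25 tested of 49 were called higher and none lower, a share of 12.0%, against 17.6% of all tested genes. With no minimum fold change 9 passed as higher and 3 as lower, where all tested genes gave 32.3% and 30.4%. The median log2 fold change of the list was 0.50. Its summed level was 1451 to 1486 CPM in watercore pulp and 1125 to 1228 CPM in healthy pulp.

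Some members varied between libraries of one group far more than the rest, and several of these sit in pairs. After the data had been seen, pairs were sought of genes with the same product name on the same scaffold but on opposite strands, with spans equal to within 10 bases. Members formed 11 such pairs, so that 10.4% of members were in one, against 5.38% of all protein-coding genes with a product name. Of the 11 pairs 3 had no reads and 5 had at least 50 reads in each gene. On scaffold NW_008988469.1 the APX6 genes LOC103929005, from 95287 to 98320, and LOC103929006, from 194121 to 197154, form one. LOC103929005 held 38.6%, 79.6% and 14.0% of the pair's reads in the watercore libraries and 81.2%, 90.9% and 43.0% in the healthy libraries, with no fixed split in either group. Summed, the pair had 9.2, 19.1 and 19.6 CPM in watercore pulp and 31.7, 41.2 and 53.6 CPM in healthy pulp, and it was called lower (log2 fold change -1.40, SE 0.28, adjusted p = 0.0019).

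The Mn superoxide dismutase LOC103953755 is paired in the same way with LOC103953790. The first held 45.5%, 64.9% and 56.0% of the reads in the watercore libraries and 25.2%, 60.8% and 87.7% in the healthy libraries. Summed, they had 18.1, 14.3 and 13.1 CPM in watercore pulp and 38.3, 21.4 and 51.4 CPM in healthy pulp, without overlap (log2 fold change -1.28, SE 0.28, adjusted p = 0.0034). The healthy total still varied, with a coefficient of variation of 40.7%. For the TXNDC9 homologs LOC103931709 and LOC103931714 the split was steadier, with the first holding 69.9% to 78.6% in watercore pulp and 82.4% to 85.7% in healthy pulp. Thioredoxin H-type LOC103960196 had 1, 2 and 341 reads in the watercore libraries and 9, 9 and 18 in the healthy ones, so nearly all of its reads came from a single library. Whether the uneven splits come from assigning reads between near-identical copies, from differences between the fruits or from something else was not tested.

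**Figure D5:**
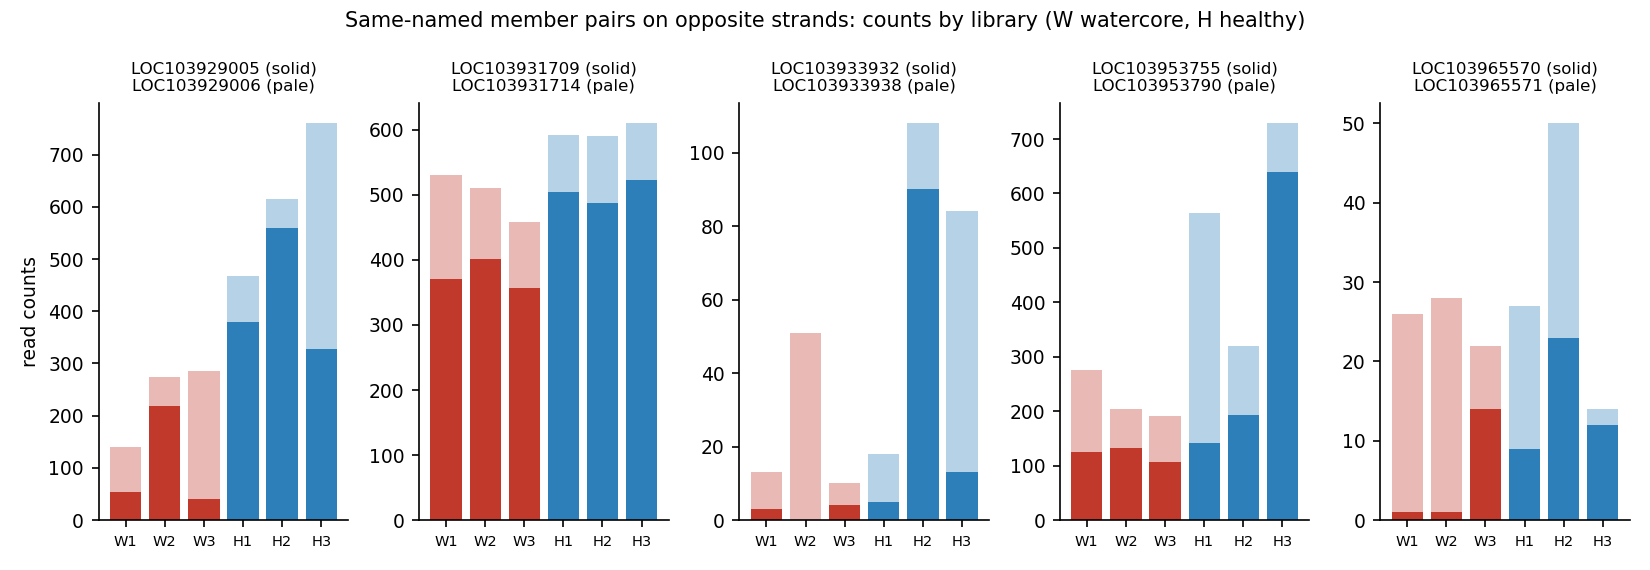
Read counts of the 5 member pairs with at least 50 reads in each gene, by library (W, watercore; H, healthy), stacked with the first gene solid and its partner pale. For LOC103929005 with LOC103929006 and for LOC103953755 with LOC103953790 the solid share changes from library to library, while the LOC103931709 pair keeps a more even split.

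The 81 members that were not tested included 32 glutaredoxins and 15 thioredoxins, and 44 of the 81 had no read in any library. The only gene named catalase, LOC103952896, was among those 44. Its 0 reads in each of 6 libraries allow a level of up to 0.209 CPM in the smallest library (3 counts, counting error only), and other catalase loci were not analysed here. Iron superoxide dismutase LOC103943209 had 2, 1 and 4 reads in watercore pulp and 10, 15 and 20 reads in healthy pulp, and the untested glutaredoxin-like LOC103965832 had 15, 7 and 22 reads in watercore pulp and 0, 1 and 0 in healthy pulp. These genes lie too close to the filter for a statement beyond their counts.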

How the data were processed

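The authors deposited 1 table with a raw read count and an FPKM value for each gene in each of the 6 libraries. Per the labels and the study's methods, reads were cleaned, mapped with HISAT2 and scaled by the authors to FPKM. No source used here states the counting tool, the strand setting or the genome build. The methods name a Pyrus betulifolia genome, whereas the table's identifiers are LOC numbers on NW scaffolds, and positions are printed as the table gives them. The table also holds the authors' own comparison, made with DESeq2: group means of scaled counts (a signal), a log2 fold change and p-values. These columns were not used.

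Counts were tested in edgeR 4.0.16 (R 4.3.3) with TMM scaling, its default filter on low counts, a quasi-likelihood test of watercore against healthy pulp and Benjamini-Hochberg adjustment over all 21200 tested genes. The SE of a log2 fold change is its size divided by the square root of the F statistic. CPM uses TMM library sizes, and FPKM is used only to compare levels between genes. Totals of 14382020 to 15290688 counts per library set the precision, and the common biological coefficient of variation was 0.143. The methods describe the 3 libraries of a group as biological replicates. Simulated counts with known changes were used to test the scripts.

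In each class the text names up to 3 called members in each direction with a mean of at least 1 CPM, and the tested member with the highest FPKM. Other genes named with values were chosen after their values had been seen. Members, classes and lists were chosen with earlier results of these data known, and a list is described by counts and medians only. Alternatives were RLE and total-count scaling, DESeq2 1.42.0, 2 other filters, offsets for gene length (loess, span 0.3), no minimum fold change, glmTreat, a replicate block and leaving out each library. Summing the paired genes and leaving out the transporters were added after seeing the data. Sequences were not used here.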

Additional observations from a re-analysis of the deposited data

How the results depend on the processing

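Counts of members moved most with the call rule, with a stricter filter on low counts and with gene length offsets. Higher members numbered 20, against 9 with at least 10 counts in every library, 32 with no minimum fold change and 12 with glmTreat. Lower members numbered 18, against 31 with gene length offsets, 62 with no minimum fold change and 8 with glmTreat. Leaving out 1 library gave 19 to 24 higher and 17 to 21 lower members. Under the replicate block there were 21 higher and 17 lower members. The replicate numbers did not pair the libraries: deviations of same-numbered libraries correlated at -0.00 to 0.04 across genes, and the block lost the call of LOC103953755 (-1.14), as did DESeq2 (-1.43). Summing paired genes gave 20 higher and 18 lower members, and leaving out the nucleobase-ascorbate transporters gave 16 and 18. Of the 40 members named by rule, 17 kept direction and call in every setting run, and 3 that were not called changed sign. LOC103952856 became -0.059 and LOC103949633 became -0.14 with gene length offsets. LOC103963516 became -0.32 with gene length offsets and -0.0028 with no filter on low counts, and ran from -0.019 to 0.051 as 1 library was left out. Apart from the construction of the filter and fold rules, the cause of these shifts was not tested. Depth limits the members with few reads, such as LOC103943627 with 5 in healthy pulp.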

Other observations

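Members that share a scaffold neighbourhood did not always share a direction. Among 7 neighbouring member pairs of one class within 15 kb, 4 had log2 fold changes of the same sign. The thioredoxins LOC103928381 and LOC103928372, separated by 1788 bases on one strand, were at 1.31 and 0.81, and the ferrireductases LOC103932189 and LOC103932192 were at 2.16 and 0.86. The glutaredoxin pair LOC103943627 and LOC103943626 was at 4.81 and -0.98, and the glutathione peroxidase pair LOC103932090 and LOC103932089 was at 1.10 and -0.58. The glutaredoxin LOC103960201, with a log2 fold change of -0.80, overlaps by 34 bases a glutathione S-transferase on the other strand, LOC103960192, which averaged 69.9 CPM in watercore pulp and 7.72 CPM in healthy pulp (log2 fold change 3.17).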
